A study of Mus musculus with 6 samples.

Results

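Gstm1, Gstm2 and Gstm5, 3 mouse genes of the mu class of glutathione S-transferases, were measured by 1 named probe each on arrays of TM4 cells, an immortalized mouse line of Sertoli origin. Sertoli cells line the seminiferous tubules and sustain the germ cells. The 3 genes were taken as all probes that the authors' deposited table of differentially expressed probes lists under these symbols, and they make up 3 of the 1992 genes named there. That table was made from the same comparison of the same arrays, so the difference between the groups chose the members, and it is given below as a description with no p-value. The Gata4 siRNA group held 3 samples transfected with 4 pooled small interfering RNAs (siRNAs) against the transcript of Gata4, a GATA-binding regulator active in Sertoli cells and in the heart. The NT siRNA group held 3 samples that received a non-targeting siRNA at the same final concentration of 0.1 µM. Each sample had its own array, all 6 came from this single immortalized line, and nothing in the labels says that they were separate cultures. No p-value is given for any gene here. SEs are those of the limma fit, in which each probe's variance is drawn toward a value common to all tested probes. They reflect only how these samples vary, which may be technical variation.

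Mu-class enzymes are dimers of the cytosol that join glutathione to electrophiles such as oxidized lipids and foreign chemicals, so that the conjugate can be pumped out of the cell. Gstm1 and Gstm2 are close relatives with overlapping substrates, and mouse Gstm5 is the counterpart of the divergent human gene GSTM3, which is known from testis and brain. In the rat, Sertoli cells are a known source of mu-class enzyme in the testis. The mouse genome annotation (RefSeq, GRCm38.p6, used here for names and neighbours) places 7 protein-coding mu-class genes side by side on chromosome 3, in the order Gstm5, Gstm7, Gstm6, Gstm3, Gstm2, Gstm1 and Gstm4. The other 4 of these genes, Gstm3, Gstm4, Gstm6 and Gstm7, had no probe named in the authors' table and were not analysed here. Members of the class are similar in sequence. The sequences of the array probes were not used here, so whether a probe also takes up signal from a paralog was not tested.

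The siRNAs are shown because they define the groups, with the letters as the labels give them, in lower case.
Gata4 siRNA 1: agagaauagcuucgaacca
Gata4 siRNA 2: ggauauggguguuccgggu
Gata4 siRNA 3: cugaauaaaucuaagacgc
Gata4 siRNA 4: ggacauaaucaccgcguaa
Non-targeting siRNA: ugguuuacaugucgacuaa

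The 250 bases before the annotated start of each of the 3 genes are shown because their transcripts were lower together while the genes sit in one cluster and differ in these letters (RefSeq, GRCm38.p6, gene strand, 5′ to 3′). Gstm1 is at chr3:108017974-108018223 on the minus strand, at the upstream one of its 2 annotated starts. Gstm2 is at chr3:107986421-107986670 on the minus strand, and Gstm5 at chr3:107895604-107895853 on the plus strand. Capitals mark every match, on either strand, to the 3 motifs searched. These were the GATA site, which is GATA preceded by A or T and followed by A or G, the core of the antioxidant response element bound by NRF2, TGACNNNGC, and the core of the xenobiotic response element bound by the aryl hydrocarbon receptor, GCGTG.
Gstm1: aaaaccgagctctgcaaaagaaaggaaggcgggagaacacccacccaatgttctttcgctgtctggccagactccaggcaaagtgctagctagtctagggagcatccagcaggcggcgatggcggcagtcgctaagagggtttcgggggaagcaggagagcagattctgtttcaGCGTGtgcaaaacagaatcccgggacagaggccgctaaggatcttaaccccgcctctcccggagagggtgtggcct
Gstm2: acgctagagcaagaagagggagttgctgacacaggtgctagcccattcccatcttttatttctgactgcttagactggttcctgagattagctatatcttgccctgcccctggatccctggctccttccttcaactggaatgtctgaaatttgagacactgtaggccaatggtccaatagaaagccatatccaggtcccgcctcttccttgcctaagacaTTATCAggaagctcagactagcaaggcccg
Gstm5: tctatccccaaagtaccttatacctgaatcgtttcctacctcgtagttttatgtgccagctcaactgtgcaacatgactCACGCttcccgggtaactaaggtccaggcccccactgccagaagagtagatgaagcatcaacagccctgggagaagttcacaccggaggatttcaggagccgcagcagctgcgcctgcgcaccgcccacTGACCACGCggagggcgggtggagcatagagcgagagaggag

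The 3 stretches held different motifs. Gstm2 held 1 GATA match, on the opposite strand, at bases -30 to -25 counted back from the start. Gstm1 held 1 xenobiotic core at -76 to -72, which lies in the window of its other start as well. Gstm5 held an antioxidant core at -42 to -34, whose last bases are also a xenobiotic core on the opposite strand, and a second xenobiotic core at -171 to -167. No GATA match was found in these letters for Gstm1 or Gstm5. Of all 32851 annotated windows of this length, 26.5% held a GATA match, 10.2% an antioxidant core and 28.2% a xenobiotic core. A match describes the letters and is not shown to be a bound site.

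Median intensity was 6.7 or 6.8 on every array, and 17740 of 45269 probes exceeded the noise floor of 17.1 intensity units on at least 3 of 6 arrays and were tested. Pearson's r across these probes ran from 0.9779 to 0.9869 for a Gata4 siRNA array with an NT siRNA array and from 0.9872 to 0.9932 within a group. Gata4 itself had no probe named in the authors' table of differentially expressed probes, so the knockdown and the group labels are not checked by the targeted gene. Other probes carry no name here, so a Gata4 probe among them was not looked for. Of 22 Sertoli markers 3 had a named probe (Sox9, Inhbb and Tjp1), all above the noise floor on every array, and the others were not analysed here. By the brightest probe Sox9 was called higher in Gata4 siRNA cells at a log2 difference of 0.59, and Inhbb and Tjp1 were called lower at -0.53 and -0.67. Their summed intensity was 2822 to 3012 on Gata4 siRNA arrays and 2946 to 3343 on NT siRNA arrays. The groups overlapped in this sum, which adds genes that went opposite ways, while each of the 3 on its own had separate groups. Sertoli cell content is not read from it. Of 8 peritubular myoid and smooth muscle markers, 4 had a named probe (Acta2, Actg2, Mylk and Tagln). All 4 were called higher in Gata4 siRNA cells by the brightest probe, while the dimmer Acta2 probes, at 0.34 to 0.53, did not pass. Of named probes 26.7% were called higher and 31.1% lower, against 4.07% and 4.71% of all tested probes, and nothing is read from these marker counts. The summed intensity of the brightest probes of these 4 genes, most of it from Acta2, was 18912 to 21319 on Gata4 siRNA arrays. On NT siRNA arrays it was 12757 to 14165. The names come from the authors' calls in this contrast, which fixed separate groups for each gene. With all 4 genes higher, the groups of this sum had to be separate too. Its part in the results below was not tested. Of 6 macrophage and leukocyte markers only Cd14 was named, and of the Leydig, endothelial and germ cell markers 0 were. In RNA from whole cultures, fewer cells that express a gene and less RNA per cell cannot be told apart.

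Transcripts of all 3 mu-class genes were lower in Gata4 siRNA cells, each at slightly under 0.6 of the NT siRNA level. Gstm1 stood at 0.584, Gstm2 at 0.588 and Gstm5 at 0.581 of that level, from means on the log2 scale. In the limma fit over all tested probes 3 of 3 member probes passed an adjusted p of 0.05 as lower, where 4.71% of all tested probes and 31.1% of the probes named by the authors did so. In either direction the shares were 8.78% and 57.9%. Since the members were chosen from the authors' calls in this contrast, nothing is read from that count.

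Gstm2 (probe ILMN_2862470), the brightest of the 3 probes, had intensities of 669.5, 644.5 and 824.2 on Gata4 siRNA arrays 1 to 3, against 1401.3, 1252.3 and 1022.7 on NT siRNA arrays 1 to 3. The groups did not overlap, with 198.5 units between the highest Gata4 siRNA array, number 3, and the lowest NT siRNA array, also number 3. The means were 712.7 ± 97.3 in Gata4 siRNA cells and 1225.4 ± 190.7 in NT siRNA cells (SD, n = 3 each), a log2 difference of -0.77 ± 0.16 (SE).

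Gstm1 (probe ILMN_1228233), which encodes a major mu-class enzyme of mouse liver, had intensities of 319.1, 246.2 and 247.2 on Gata4 siRNA arrays 1 to 3, against 576.2, 516.4 and 351.3 on NT siRNA arrays 1 to 3. NT siRNA array 3 stood apart from the other control arrays and came within 32.2 units of Gata4 siRNA array 1, so the groups were separate by a narrow margin. The means were 270.8 ± 41.8 in Gata4 siRNA cells and 481.3 ± 116.5 in NT siRNA cells (SD, n = 3 each), a log2 difference of -0.78 ± 0.20 (SE). Its spread among NT siRNA arrays was the widest of the 3 genes, with a coefficient of variation of 24.2%, against 15.6% for Gstm2 and 8.39% for Gstm5.

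Gstm5 (probe ILMN_2705777) had intensities of 514.6, 583.1 and 648.5 on Gata4 siRNA arrays 1 to 3, against 1098.4, 928.8 and 1007.8 on NT siRNA arrays 1 to 3. It had the widest gap between the groups, 280.3 units, and its lowest control array was number 2, not number 3. The means were 582.1 ± 67.0 in Gata4 siRNA cells and 1011.7 ± 84.9 in NT siRNA cells (SD, n = 3 each), a log2 difference of -0.78 ± 0.13 (SE).

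**Figure D1:**
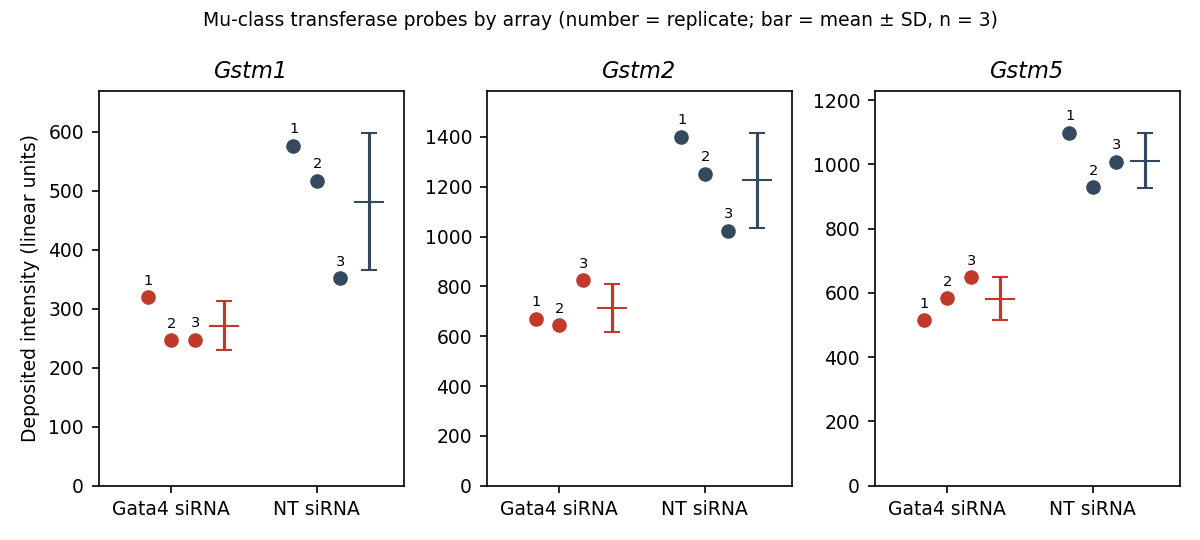
Deposited intensity (linear units, y axis from 0) of the Gstm1, Gstm2 and Gstm5 probes on each array, with Gata4 siRNA left of NT siRNA, replicate numbers above the points and mean ± SD (n = 3) beside them. All Gata4 siRNA points lie below all NT siRNA points, with NT siRNA array 3 lowest among the controls for Gstm1 and Gstm2.

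Non-overlap carries no information here. All 3 member probes were separate and lower, as were 16.2% of all tested probes, and of the 2387 tested probes that the authors name, 100% had groups that did not overlap, 49.1% lower and 50.9% higher. Of all tested probes 17% were separate and higher. The 3 log2 differences lay within 0.02 of each other, less than the SE of any of them. Each was in the lowest few percent of all tested probes: 2.07% had a lower difference than Gstm1, 2.15% than Gstm2 and 1.96% than Gstm5. In level the 3 probes were above the middle, with 57.6%, 74.0% and 70.6% of tested probes dimmer than Gstm1, Gstm2 and Gstm5. Mean intensities of NT siRNA cells were 28.1, 71.7 and 59.2 times the noise floor for these genes in that order, so dimness limits none of the 3. The median log2 difference of all tested probes was 0.01.

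**Figure D2:**
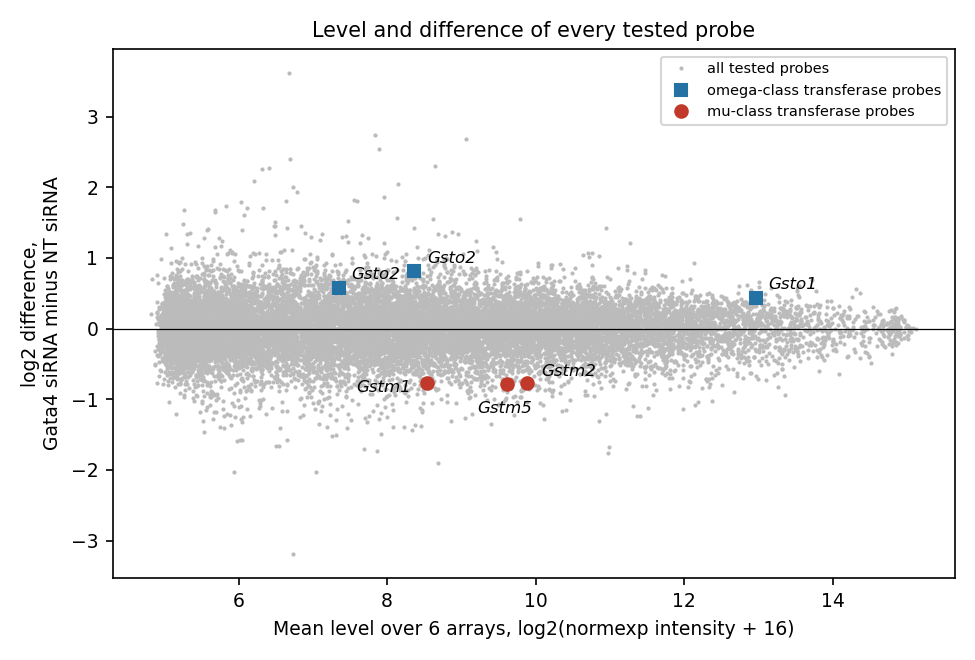
Mean level over 6 arrays (x axis, log2 of normexp intensity plus 16) and log2 difference, Gata4 siRNA minus NT siRNA (y axis), for all 17740 tested probes in grey. The mu-class probes (circles) lie together at -0.77 to -0.78, and the omega-class probes (squares) lie above 0, at 0.44 to 0.82.

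The sign of the 3 differences could not change under the 11 other settings, because the groups did not overlap. These settings were 3 other treatments of dim values, array weights, a replicate block and each of 6 arrays left out. The differences ran from -0.60 to -0.98 for Gstm1, -0.66 to -0.89 for Gstm2 and -0.68 to -0.86 for Gstm5. The side of the threshold did change. Gstm1 passed in 5 of the 11 settings, Gstm2 in 5 and Gstm5 in 8. Leaving out array 1 or 2 of the Gata4 siRNA group, or array 1 of the NT siRNA group, 0 of the 3 passed, with differences of -0.63 to -0.89 for Gstm1, -0.66 to -0.73 for Gstm2 and -0.70 to -0.79 for Gstm5. Without NT siRNA array 2 only Gstm5 passed, at -0.84, while Gstm1 stood at -0.71 and Gstm2 at -0.74. Without Gata4 siRNA array 3 Gstm1 did not pass, at -0.72. Without NT siRNA array 3 all 3 passed, and the difference was -0.98 for Gstm1 and -0.89 for Gstm2, larger in size than with it, against -0.79 for Gstm5.

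**Figure D3:**
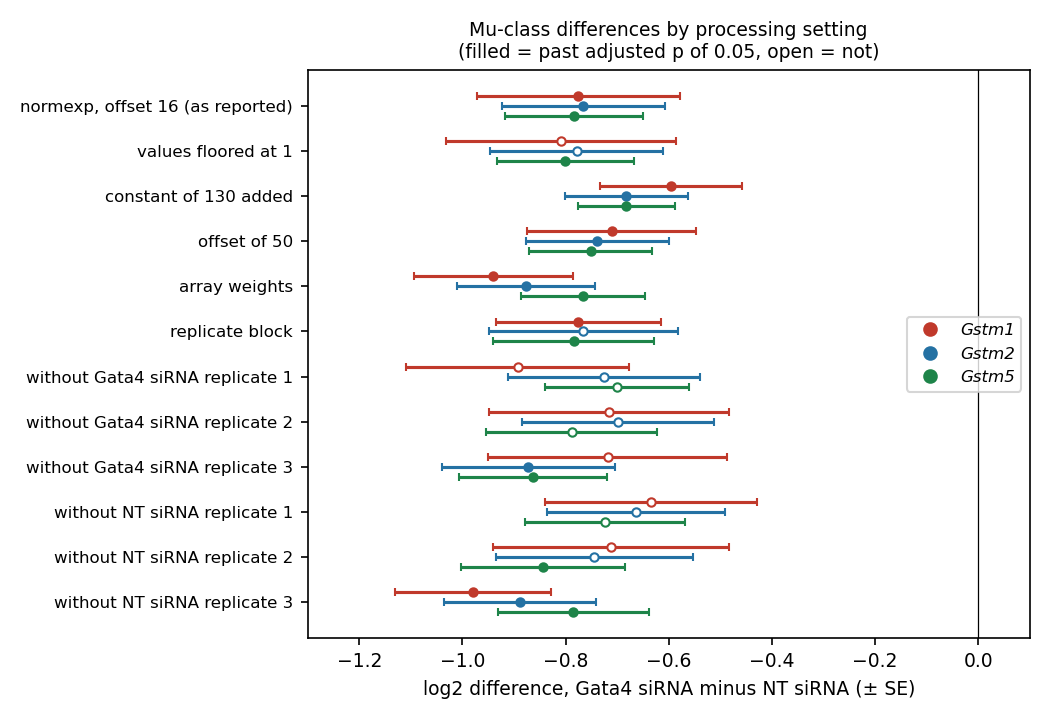
Log2 difference, Gata4 siRNA minus NT siRNA (x axis, ± SE), of the 3 mu-class probes under the reported setting and 11 alternatives (y axis). Every point lies below 0, as the separate groups require, between -0.60 and -0.98. The filled points, which passed an adjusted p of 0.05, change from setting to setting.

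The arrays ordered differently for the 3 genes within a group. Gata4 siRNA array 1 was highest for Gstm1, while array 3 was highest for Gstm2 and Gstm5. The likeness of 2 profiles was measured as the root mean square difference of their log2 levels over the 6 arrays, after each probe's own mean was taken off. This distance was 0.20 between Gstm1 and Gstm2, 0.14 between Gstm2 and Gstm5 and 0.29 between Gstm1 and Gstm5. Medians from a member to the 1978 other named genes tested were 0.55 to 0.57. Of named tested probes 49.1% were separate and lower and 50.9% separate and higher. The medians thus mix genes of both directions, and no likeness is read from them. Many other named genes were nearer than the paralogs. Among the genes nearest to Gstm1, Gstm2 ranked 94 and Gstm5 ranked 397 of 1978. Among those nearest to Gstm2, Gstm5 ranked 108 and Gstm1 ranked 337. Among those nearest to Gstm5, Gstm2 ranked 145 and Gstm1 ranked 909. The ranked genes also include those of the opposite direction, so these are not ranks among the genes lower in Gata4 siRNA cells.

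For Gstm1 the nearest named genes were Csad, an enzyme of taurine synthesis that starts from cysteine sulfinate (distance 0.11), Maged2, a member of the MAGE family (0.11), and the mitochondrial citrate carrier Slc25a1 (0.12), which did not pass. Csad had an intensity of 203.8 ± 21.0 in Gata4 siRNA cells and 396.8 ± 69.3 in NT siRNA cells (SD, n = 3 each). For Gstm2 they were the glycolytic enzyme Gpi1 at a distance of 0.03, the ubiquitin ligase Mib2 at 0.04 and Uba7, the activating enzyme of the ubiquitin-like protein ISG15, at 0.05. Gpi1 stood at 77.7 ± 12.3 in Gata4 siRNA cells and 147.4 ± 26.4 in NT siRNA cells (SD, n = 3 each), and it shared the low NT siRNA array 3 with Gstm2. For Gstm5 they were the splicing factor gene U2af1l4 at 0.04, the prolyl isomerase Fkbp7 of the endoplasmic reticulum at 0.07 and the stress-induced mTOR inhibitor Ddit4 at 0.07. All of these genes were named from the same calls, and the points of each profile share arrays and normalization. They were picked by likeness over these same arrays, so a shared low array follows from that choice.

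**Figure D4:**
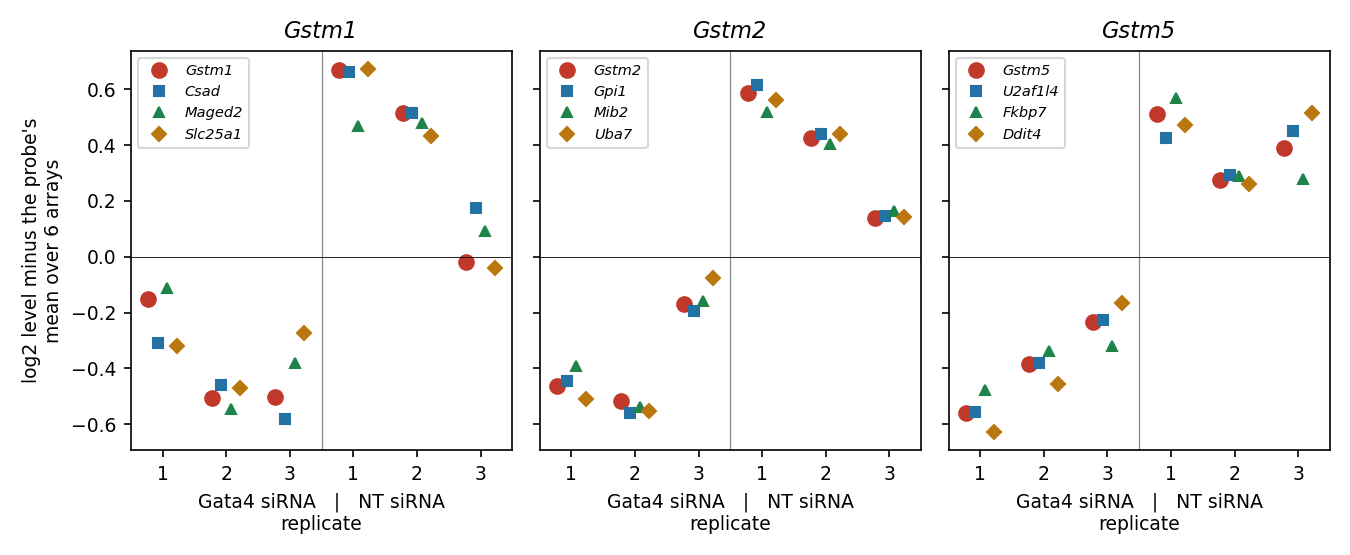
Log2 level minus the probe's own mean over 6 arrays (y axis) on each Gata4 siRNA array (left of the line) and each NT siRNA array (right), for each mu-class gene (large circles) and its 3 nearest named genes (small marks). NT siRNA array 3 is the lowest control array in the genes nearest to Gstm1 and Gstm2. Beside Gstm5 it is narrowly the lowest in Fkbp7, and not in Ddit4 or U2af1l4. The genes were picked by likeness over these same arrays, so nothing is read from the shared pattern.

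The nearest named genes outside the cluster, taken by position after the values were seen, went both ways. Other annotated genes in between had no named probe and were not analysed. Ahcyl1, a regulator of calcium release with 6 annotated genes between it and Gstm5, had a log2 difference of -0.44 ± 0.14 (SE). Atxn7l2, with 10 annotated genes between it and Gstm4, had -0.51 ± 0.14. Ahcyl1 and Atxn7l2 were both lower in Gata4 siRNA cells, and neither passed. Their groups did not overlap, which held for 100% of named tested probes (49.1% lower, 50.9% higher), so nothing is read from it. Sort1, the sorting receptor sortilin, with 14 annotated genes between it and Gstm4, was called higher at 0.76 ± 0.12. Its intensity was 417.1 ± 4.2 in Gata4 siRNA cells and 240.3 ± 22.5 in NT siRNA cells (SD, n = 3 each). Further out, Rbm15 (0.57 ± 0.16) and Sars (-0.43 ± 0.11) did not pass, and Wdr77 was called higher at 0.94 ± 0.13.

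Among the other classes of glutathione transferase, 3 of 22 genes listed had a named probe, and both tested genes had differences above 0. Gsto2, an omega-class enzyme that reduces dehydroascorbate, was called higher by both of its probes. Its brighter probe had 379.0, 440.2 and 449.9 on Gata4 siRNA arrays 1 to 3, against 250.5, 248.3 and 202.9 on NT siRNA arrays 1 to 3, a log2 difference of 0.82 ± 0.13 (SE), and its dimmer probe a difference of 0.58 ± 0.11. The brighter probe passed in 7 and the dimmer in 2 of the 8 alternatives run for these lists (values floored at 1, a replicate block and each array left out). Gsto1, the other omega-class gene and by far the brighter probe, averaged 9273 ± 634 in Gata4 siRNA cells and 6841 ± 258 in NT siRNA cells (SD, n = 3 each). Its log2 difference of 0.44 ± 0.12 did not pass. The theta-class gene Gstt4 exceeded the noise floor on 2 Gata4 siRNA arrays and on 0 NT siRNA arrays and was not tested. Beside the count of 1 gene of 2 tested called higher here, 4.07% of all tested probes and 26.7% of named probes were called higher.

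Of 34 genes that make, use or break down glutathione 8 had a named probe, and 1 of these was called higher, 5 were called lower and 2 did not pass. Their median log2 difference was -0.64. Of named probes 26.7% were called higher and 31.1% lower, against 4.07% and 4.71% of all tested probes, and nothing is read from the counts of this list or the next 2. Slc7a11, the cystine transporter that supplies cysteine for glutathione, was called lower by all 3 of its probes, at -0.85 ± 0.16 for the brightest, -1.41 ± 0.12 for the next and -0.80 ± 0.13 for the dimmest, which exceeded the noise floor on 2 of 3 Gata4 siRNA arrays. Its middle probe had 90.1, 94.0 and 93.2 on Gata4 siRNA arrays 1 to 3, against 293.6, 286.9 and 237.8 on NT siRNA arrays 1 to 3. Gpx7, a peroxidase of the endoplasmic reticulum, stood at -0.86 ± 0.16. The isocitrate dehydrogenases Idh1, of the cytosol, and Idh2, of mitochondria, both of which make the NADPH that keeps glutathione reduced, stood at -0.75 ± 0.11 and -0.65 ± 0.17. The enzymes of glutathione breakdown went apart, with Chac1, which cleaves glutathione in the cytosol, at -0.63 ± 0.11 and Ggct, which acts on the gamma-glutamyl peptides, at 0.81 ± 0.16. The brightest probe of Slc7a11 passed in 4 of the 8 alternatives, its middle probe in 8 and its dimmest in 6. Of the other genes called here, Idh1 passed in 7, Gpx7 in 5, Chac1 and Ggct in 3 and Idh2 in 0. Genes of the 2 ligation steps of glutathione synthesis had no named probe.

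Targets and partners of NRF2, the factor of the antioxidant response, and other antioxidant genes went both ways. Of 36 genes 8 were named, with 2 called higher, 1 called lower and 5 not passing (median -0.09), where 26.7% of named probes were called higher and 31.1% lower. Nqo1, a quinone reductase and a standard NRF2 target, had 270.3, 275.0 and 242.8 on Gata4 siRNA arrays 1 to 3, against 138.6, 143.3 and 135.1 on NT siRNA arrays 1 to 3. Its log2 difference was 0.85 ± 0.11, and it passed in all 8 alternatives. Its relative Nqo2 was called higher by 2 of 3 probes, at 0.57 ± 0.12 for the brightest, which passed in 1 of 8 alternatives. The ferritin light chain Ftl1, an iron store, was called lower by all 4 probes, at -0.49 ± 0.11 for the brightest, though 3 of the 4 passed in 5 or fewer of the 8 alternatives. Of these 4 probes 3 carry a predicted locus symbol in the authors' deposited table and were named by its Entrez number. Biliverdin reductase Blvrb stood at -0.62 ± 0.17, the peroxiredoxin Prdx5 at -0.52 ± 0.15 and thioredoxin Txn1 at -0.49 ± 0.14, and these 3 did not pass.

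Other detoxication enzymes and exporters were split as well, with 5 of 53 genes named, 2 called higher, 2 called lower and 1 not passing (median 0.31). The shares of named probes called higher and lower, 26.7% and 31.1%, apply here too. Ephx1, the microsomal epoxide hydrolase that opens reactive epoxides with water, had 65.6, 49.8 and 83.3 on Gata4 siRNA arrays 1 to 3, against 187.7, 150.9 and 131.1 on NT siRNA arrays 1 to 3. Its log2 difference was -1.08 ± 0.19, and it passed in 5 of the 8 alternatives. The carbonyl reductase Cbr2 stood at -1.14 ± 0.19, with intensities of 21.3 ± 10.4 in Gata4 siRNA cells, where 2 of 3 arrays exceeded the noise floor, and 66.4 ± 7.2 in NT siRNA cells (SD, n = 3 each). With values floored at 1 its difference was -1.79 ± 0.43 and did not pass, and it passed in the other 7 alternatives. Aldose reductase Akr1b3 stood at 0.93 ± 0.15 and the exporter Abcc5 at 0.75 ± 0.12, both called higher and both past the threshold in 7 of 8 alternatives. Akr1b8, an aldo-keto reductase, stood at 0.31 ± 0.12 and did not pass.

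Over these 4 lists beside the mu class, 24 of 145 genes were named and 23 tested, with 6 called higher and 8 called lower. As the names come from the authors' calls, the counts are shares of named genes, not of the lists, and the 121 genes without a name here were not analysed. These counts changed when single arrays were left out, which also leaves fewer arrays in the fit. Of genes called lower there were 2 when Gata4 siRNA array 1 was left out, 1 when Gata4 siRNA array 2 was, 2 when NT siRNA array 1 was and 5 when NT siRNA array 2 was. Of genes called higher there were 2 when Gata4 siRNA array 2 was left out.

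**Figure D5:**
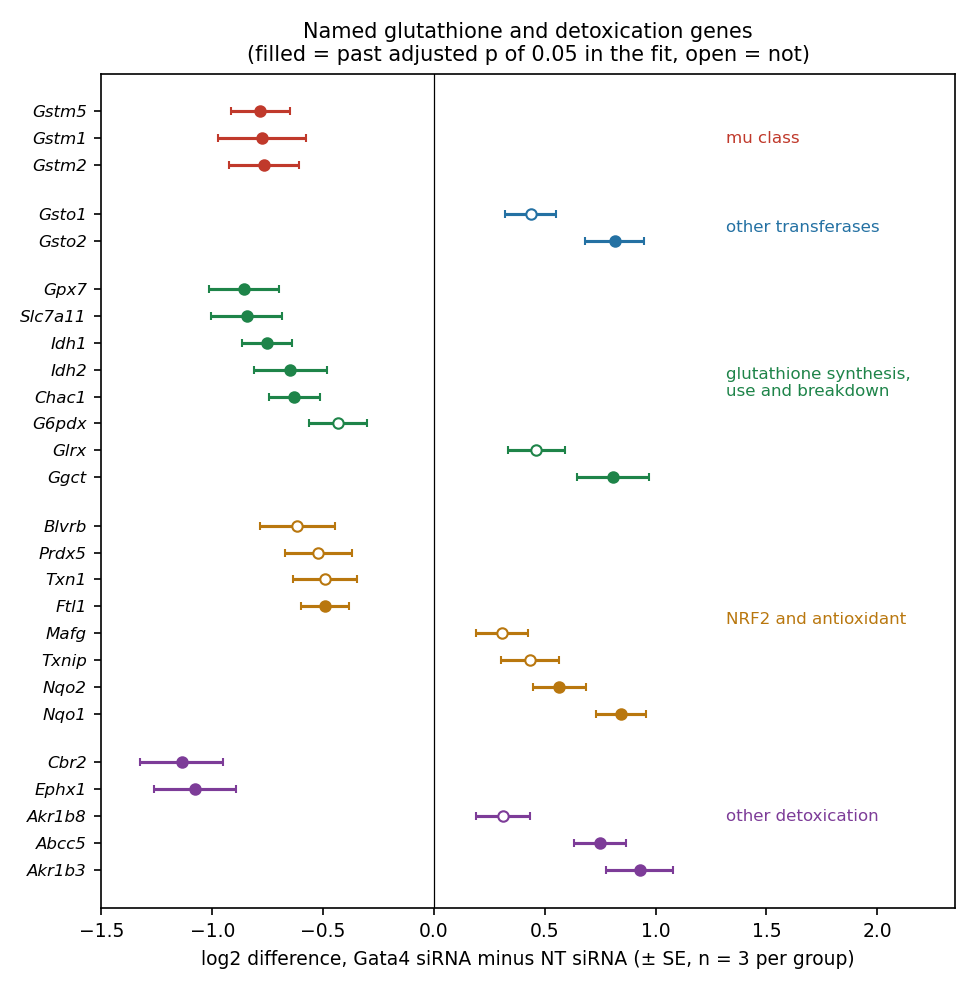
Log2 difference, Gata4 siRNA minus NT siRNA (x axis, ± SE, n = 3 per group), of the brightest probe of each named and tested gene of the 5 lists, grouped by list down the page. The mu-class genes stand at -0.77 to -0.78, the omega-class genes at 0.44 and 0.82, and the other lists hold genes on both sides of 0.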

How the data were processed

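Total RNA was labelled with biotin and hybridized to Illumina MouseWG-6 BeadChips, per the labels' protocols. The values used are linear-scale intensities that the authors deposited, 1 for each probe on each array. The submitters' processing notes name GenomeStudio, with version and settings not given in the sources used here. Values below 0 (37.1% of the deposited intensities) and equal medians show that background subtraction and normalization preceded deposit. Another 18 per-array columns, which carry no sample's label, were left unused. Fold changes and p-values of the authors' deposited table were not used, and it gave only probe names, updated by Entrez number through RefSeq for 518 of the 2401 named probes (14 left out).

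Intensities were corrected with normexp (background mean 0, SD 9.40), given an offset of 16 and put on the log2 scale, which understates changes of dim probes. The noise floor of 17.1 is the 95th percentile of the sizes of values below 0. The fit was limma's (3.58.1, under R 4.3.3; lmFit, then eBayes), with p-values adjusted by Benjamini-Hochberg across 17740 probes, and was tested on simulated data. A gene is represented by its brightest probe. Figures used matplotlib 3.10.9. Precision is limited by having 3 arrays in each group.

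Sample titles gave the group and replicate number. The series' design text numbers the control samples 3 to 6, which conflicts with the 3 it states for each group. Groups here rest on the titles alone. The reported fit has no replicate block. The members and lists were chosen with earlier results of these data known. The text names every probe of the members, named probes of the other transferases, up to 6 genes of each further list by size of difference, and the 3 genes nearest to each member. Alternatives changed how dim values are treated, dropped the filter, used eBayes with trend, weighted the arrays, added a replicate block or omitted 1 array.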

Additional observations from a re-analysis of the deposited data

How the results depend on the processing

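The 3 mu-class differences stayed below 0 under the 11 alternatives in which they were computed, which the separate groups fixed in advance. With each array left out in turn they ran from -0.98 to -0.63 for Gstm1, from -0.89 to -0.66 for Gstm2 and from -0.86 to -0.70 for Gstm5, and 0 to 3 of the 3 probes passed. With values floored at 1, and with no filter on dim probes, 1 of the 3 passed. The count of all probes called, 1558, was 734 with values floored at 1, 2518 with 130 added, 3079 with array weights, 2377 with eBayes with trend and 736 with the replicate block, and 257 to 1602 with each array left out. Under the replicate block 2 of the 3 mu-class probes passed, without Gstm2, at unchanged differences, and the genes called lower in the 4 other lists were 5 in place of 8. Those called lower were 4 with values floored at 1 and 1 to 7 with each array left out, and those called higher were 2 to 6. Same-numbered samples did not deviate together across all tested probes (r of their deviations from the group means -0.05, -0.09 and -0.01). These values cannot show whether such samples shared more than a number, which was not tested. With the replicate block the SE was 0.16 in place of 0.20 for Gstm1, 0.18 in place of 0.16 for Gstm2 and 0.16 in place of 0.13 for Gstm5. No gene of the lists could change sign under the alternatives run for them, since the groups of every named tested probe did not overlap. With 3 arrays per group and no separate cultures stated, the counts of calls changed when single arrays were left out. Each omission also leaves fewer arrays in the fit, and the cause of each lost call was not tested.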
